A study of Homo sapiens with 24 samples.

Results

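The 10 genes described here make, bind or edit double-stranded RNA: PRKRA, TARBP2, DICER1, AGO1, AGO2, ADAR, ADARB1, DROSHA, DGCR8 and XPO5. They were taken by gene symbol from a table of 43037 genes, in which each was matched through its Ensembl identifier to exactly 1 row, and all 10 passed the filter on low values. The samples came from human glioblastoma lines, 4 in number (DBTRG-05MG, T98G, U251MG and U87MG), and each line was studied as a “Vec” variant carrying a blank puromycin-resistance lentivirus and as a “WWOX” variant carrying a lentivirus that expresses the tumour suppressor WWOX with GFP and puromycin resistance from the CMV promoter. Both variants were selected stable transductants, with 3 biological replicates in each of the 8 groups and 24 libraries in all. T98G was grown in MEM, U87MG and U251MG in EMEM and DBTRG-05MG in RPMI medium, so line and medium cannot be told apart except between U87MG and U251MG, which shared a medium. Transcription was measured by CAGE-Seq, which sequences the 5′ ends of capped transcripts, and the values are tags per 1000000 tags of the library (CPM) summed over all starts of a gene. Libraries held 10756072 to 16953689 tags, with a median of 14584829.

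In microRNA maturation, DROSHA cuts the hairpin out of the primary transcript with its RNA-binding partner DGCR8, XPO5 exports the hairpin from the nucleus, DICER1 trims it to a duplex, and an Argonaute protein such as AGO1 or AGO2 takes up 1 strand. TARBP2 and PRKRA are related double-stranded RNA-binding proteins that both bind DICER1, and they differ in their known effect on the kinase PKR (gene EIF2AK2): PRKRA, also called PACT, activates it and TARBP2 restrains it. ADAR and ADARB1 convert adenosine to inosine in double-stranded RNA, and editing by ADAR keeps cellular RNA from being sensed as foreign.

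The promoters of 4 of the genes are shown because these genes differed most between lines or were of most interest to the study. Each sequence is the 250 bases before the most upstream RefSeq start (build GRCh38.p14), read 5′ to 3′ on the gene's strand, and the capitals mark 3 motifs searched on both strands. The GC box was searched as GGGCGG. The letters of the CCAAT box are its name, and the TATA box was searched as TATAAA. The PRKRA window lies at chr2:178451176-178451425 on the minus strand, the TARBP2 window at chr12:53500673-53500922 on the plus strand, the ADAR window at chr1:154627998-154628247 on the minus strand and the ADARB1 window at chr21:45074328-45074577 on the plus strand.
PRKRA: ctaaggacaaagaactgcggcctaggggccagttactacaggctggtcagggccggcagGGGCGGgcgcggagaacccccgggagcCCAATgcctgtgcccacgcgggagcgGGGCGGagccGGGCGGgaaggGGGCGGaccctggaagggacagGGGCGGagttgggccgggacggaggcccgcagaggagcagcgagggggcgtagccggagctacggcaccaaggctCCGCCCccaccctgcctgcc
TARBP2: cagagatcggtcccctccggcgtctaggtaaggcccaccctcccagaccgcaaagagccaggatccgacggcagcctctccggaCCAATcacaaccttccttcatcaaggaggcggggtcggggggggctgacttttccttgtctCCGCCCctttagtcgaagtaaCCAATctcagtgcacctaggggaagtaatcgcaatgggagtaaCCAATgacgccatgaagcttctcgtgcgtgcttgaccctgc
ADAR: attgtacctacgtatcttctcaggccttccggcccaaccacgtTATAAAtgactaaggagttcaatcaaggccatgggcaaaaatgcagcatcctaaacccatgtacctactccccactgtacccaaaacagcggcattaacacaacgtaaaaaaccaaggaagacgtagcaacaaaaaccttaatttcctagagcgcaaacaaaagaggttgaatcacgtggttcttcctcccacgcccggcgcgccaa
ADARB1: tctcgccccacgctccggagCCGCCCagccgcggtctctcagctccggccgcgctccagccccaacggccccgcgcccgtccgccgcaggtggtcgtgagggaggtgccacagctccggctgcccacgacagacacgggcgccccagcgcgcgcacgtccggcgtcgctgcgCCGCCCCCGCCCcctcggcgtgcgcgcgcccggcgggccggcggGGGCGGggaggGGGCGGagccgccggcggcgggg
RefSeq windows were matched for 9 of the 10 genes. A GC box stood in 7 of them, a CCAAT box in 5 and a TATA box in 1, while over all 35116 windows of the same length these shares were 42.6%, 32.0% and 10.7%. PRKRA had 6 GC boxes and 1 CCAAT box in a window of 74.0% GC. ADARB1 had 5 GC boxes in a window of 83.6% GC. The ADAR window, at 47.2% GC, held the only match to the TATA box letters and neither of the other motifs. That match lies toward the upstream end of the window, far from the start, and its function was not tested. TARBP2 held 1 GC box and 3 CCAAT boxes. ADAR is known to have an interferon-responsive start and constitutive ones, and the gene-level sums do not separate them.

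The pathway is also encoded inside 2 of its own genes. DGCR8 (chr22:20080221-20111877, plus strand) hosts MIR3618 and MIR1306, and DICER1 (chr14:95086228-95158010, minus strand) hosts MIR3173. The mature microRNAs from RefSeq are shown with the seed, bases 2 to 8, in capitals.
hsa-miR-3618: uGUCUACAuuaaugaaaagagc
hsa-miR-1306-5p: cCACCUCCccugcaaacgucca
hsa-miR-1306-3p: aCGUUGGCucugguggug
hsa-miR-3173-5p: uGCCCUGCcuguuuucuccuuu
hsa-miR-3173-3p: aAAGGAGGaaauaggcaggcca
No seed is shared among these 5. The host genes had tags in every library, whereas the rows of all 3 microRNA genes had a mean of 0 CPM over the libraries, and 3 tags, the limit that a count of 0 allows, equal 0.177 to 0.279 CPM depending on the library. Mature microRNAs carry no cap, so CAGE says nothing of their amount.

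Overlapping genes bear on what the tags of a member can mean, because whether strand was used in counting is not given in the sources used here. PRKRA (chr2:178431292-178451512, minus strand) overlaps CHROMR and PJVK on the opposite strand, DICER1 overlaps DICER1-AS1, DGCR8 overlaps TRMT2A, and XPO5 (chr6:43522334-43576038, minus strand) overlaps POLR1C. Of the annotated starts (GENCODE v44), 2 of 28 for PRKRA, 1 of 26 for DICER1, 10 of 20 for TARBP2 and 10 of 12 for XPO5 lay inside the span of another gene, a long non-coding RNA for TARBP2 and POLR1C for XPO5. POLR1C averaged 50.7 CPM over the libraries and TRMT2A 42.8 CPM, while CHROMR averaged 6.46, DICER1-AS1 1.86 and PJVK 0.176 CPM.

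WWOX itself was read first. In U87MG it was at 40.1, 33.9 and 39.8 CPM in Vec and 66.0, 61.3 and 61.0 in WWOX, and in DBTRG-05MG at 20.4, 22.2 and 21.3 in Vec and 32.0, 28.2 and 28.0 in WWOX. In T98G the Vec libraries held 38.6, 57.2 and 34.2 CPM and the WWOX libraries 45.1, 61.8 and 60.0. In U251MG they held 31.4, 36.8 and 32.1 in Vec and 56.7, 17.4 and 38.0 in WWOX. WWOX and Vec libraries were therefore apart in U87MG and DBTRG-05MG and overlapped in T98G and U251MG, and the library labelled U251MG WWOX replicate 2 lay below every Vec library of its line. The 5′ end of a CMV-driven transcript lies in vector sequence, so these tags need not come from the transgene and are a weak check of the labels. By limma the mean difference over the 4 lines was 0.35 on the log2 scale (SE 0.11, adjusted p = 0.119). According to the paper, Western blots of extracted protein verified the transduction, and protein is not measured here.

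Some libraries stood apart. The mean squared deviation from the group mean over the 12327 genes tested was 0.455 for the library labelled U251MG WWOX replicate 2, 0.406 for U251MG WWOX replicate 1 and 0.262 for T98G Vec replicate 2. Deviations also followed the GC content of transcripts: their correlation with it across genes ran from -0.58 in T98G Vec replicate 2 to 0.65 in T98G Vec replicate 3, with 0.64 in the library labelled U251MG WWOX replicate 2. Among the line markers CD44 was at 678 to 3520 CPM, VIM at 13.5 to 71.7 and GFAP at 0.790 to 3226 over the libraries. OLIG2 did not exceed 3.57 CPM. NES, S100B and SOX2 had 3 tags or fewer in 5, 8 and 9 libraries but reached 129, 343 and 268 CPM in others. Of 10 markers of other cell types, PTPRC, PECAM1, KRT5, RBFOX3 and MOG had 3 tags or fewer in all 24 libraries, and SYT1 and MBP reached 108 and 52.0 CPM. The 10 summed to 1.56 to 3.16 CPM in T98G Vec and 0.594 to 1.58 in T98G WWOX. In U87MG they summed to 2.53 to 3.48 in Vec and 6.35 to 12.4 in WWOX. Their sums in DBTRG-05MG were 45.8 to 59.0 in Vec and 54.2 to 82.7 in WWOX, and in U251MG 13.1 to 45.9 and 24.7 to 142. WWOX libraries therefore lay wholly above Vec libraries in U87MG. In T98G they lay lower, overlapping as CPM but not after scaling between libraries. The part of these markers in the results was not tested.

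PRKRA was read at higher levels in WWOX than in Vec in the mean of each line. The study had picked PRKRA from these same libraries on the WWOX contrast, so its differences are given as a description without a test. In T98G its values were 58.6, 78.2 and 32.0 CPM in Vec and 83.1, 100.6 and 120.6 in WWOX. In U87MG they were 33.6, 34.1 and 30.6 in Vec and 56.7, 45.7 and 38.3 in WWOX, and in DBTRG-05MG 25.7, 29.9 and 28.4 in Vec and 45.5, 33.8 and 33.9 in WWOX. In these 3 lines no WWOX library lay below a Vec library as CPM, although after scaling between libraries the DBTRG-05MG groups overlapped. In U251MG the Vec libraries held 28.9, 25.3 and 28.5 CPM and the WWOX libraries 54.1, 16.6 and 37.1, so that the groups overlapped. The lowest of these was the library labelled U251MG WWOX replicate 2, which also held the least WWOX.

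**Figure D1:**
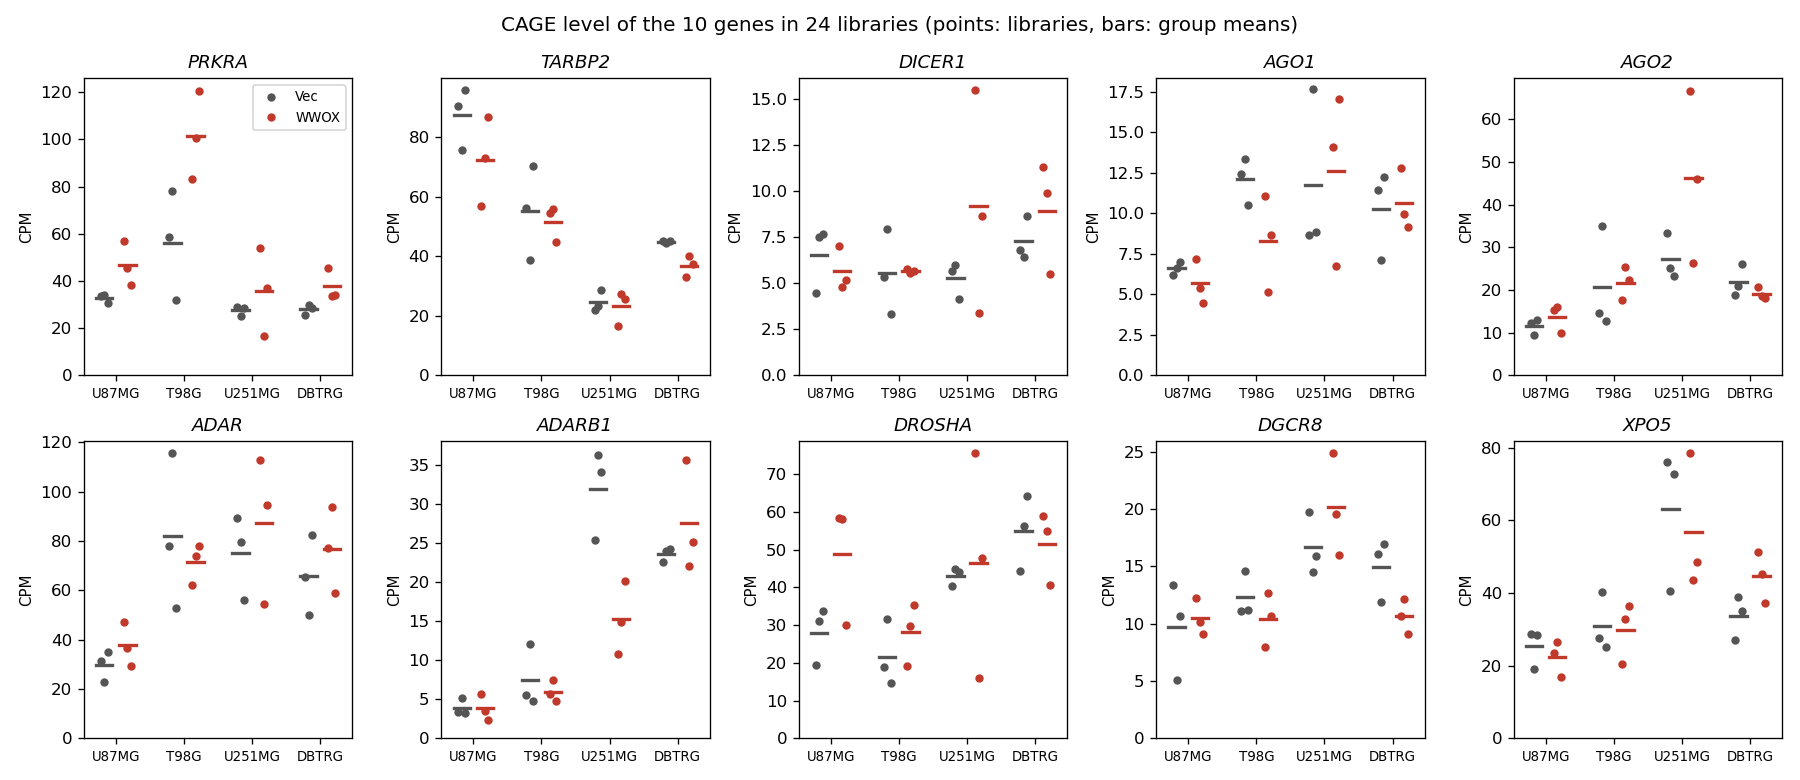
CAGE level in CPM (y axis) of the 10 genes in each of the 24 libraries, by line (x axis) and variant, where grey points are Vec, red points are WWOX and bars are group means. PRKRA is highest in T98G, TARBP2 in U87MG, and ADARB1 is low in U87MG and T98G.

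On the log2 scale PRKRA differed by 0.92 in T98G, 0.43 in U87MG, 0.35 in DBTRG-05MG and 0.21 in U251MG (SE 0.26 in each line), and by 0.48 in the mean of the lines (SE 0.13), a 1.39-fold difference. Of all genes tested, 8.29% were above 0 in all 4 lines, as PRKRA was, and 0.17% had WWOX libraries wholly above Vec libraries in at least 3 lines, while PRKRA on the same scaled values had this in 2. The libraries that stood apart moved these values: without T98G Vec replicate 2 the T98G difference was 1.13, without T98G Vec replicate 3 it was 0.65, without U251MG WWOX replicate 1 the U251MG difference was -0.07, and leaving out the library labelled U251MG WWOX replicate 2 gave 0.45.

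The GC dependence of a library moved with PRKRA. PRKRA transcripts hold 40.0% GC, below 47.9% for the median gene tested, and PRKRA lay above its group mean in all 6 libraries whose deviations were most strongly tied to low GC and above it in 0 of the 6 libraries most strongly tied to high GC. TARBP2, at 61.0% GC, was above its group mean in 1 of the former 6 and in all 6 of the latter. In the same order DROSHA (45.9% GC) was above its group mean in 6 and 0, and AGO2 (46.6%) and XPO5 (48.7%) in 6 and 1. ADAR (49.9%) was above in 5 and 1, DICER1 (39.5%) in 4 and 1 and DGCR8 (53.6%) in 5 and 3. AGO1 (46.4%) and ADARB1 (53.1%) were above in 4 and 2. The pattern of PRKRA was therefore shared by some members near the median GC. A spline correction for GC and length left PRKRA at 0.88 in T98G, 0.34 in U87MG, 0.27 in U251MG, 0.23 in DBTRG-05MG and 0.43 over all lines.

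**Figure D2:**
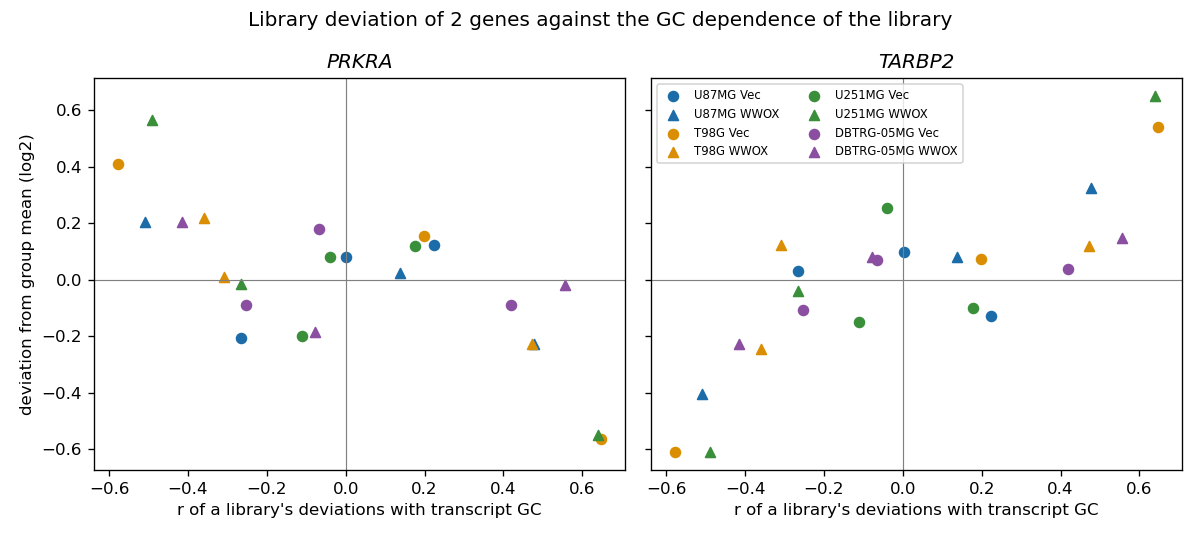
Deviation of PRKRA (left) and TARBP2 (right) from the group mean on the log2 scale (y axis) against the correlation, across genes, of that library's deviations with transcript GC content (x axis), with 1 point for each of the 24 libraries. PRKRA falls and TARBP2 rises from left to right, from r of -0.58 to 0.65.

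CHROMR, a long non-coding RNA that overlaps PRKRA on the opposite strand, did not pass the test. It was at 7.52, 9.90 and 3.27 CPM in T98G Vec and at 8.27, 11.3 and 9.44 in T98G WWOX, and at 2.77, 6.80 and 8.07 in U87MG Vec and 5.38, 5.09 and 6.18 in U87MG WWOX. Its largest difference was in U251MG (0.78, SE 0.40, adjusted p = 0.472 by limma), at 1.86, 3.90 and 2.08 CPM in Vec and 7.96, 1.57 and 7.71 in WWOX, where the groups overlapped. Its mean difference over the lines was 0.39 (SE 0.20, adjusted p = 0.354 by limma), and the exact two-sided permutation p was 0.0732. EIF2AK2, which encodes the kinase that PRKRA activates, differed by 0.04 in the mean of the lines (SE 0.23, adjusted p = 0.95 by limma).

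None of the other 9 genes passed an adjusted p of 0.05 between WWOX and Vec in any line or in the mean of the lines by limma, edgeR's quasi-likelihood test or limma-voom. Over the 36 tests of 9 genes in 4 lines, 3 had an unadjusted p under 0.05 by limma. Of all genes tested, those called made up 1.02% in DBTRG-05MG, 3.2% in U87MG, 0.316% in U251MG and 1.14% in T98G, and those with an unadjusted p under 0.05 made up 7.63% in DBTRG-05MG and 11.5% in each other line. For the mean of the lines 0 of 9 were called and 0 had an unadjusted p under 0.05, beside 1.78% and 15.4% of all genes. Groups did not overlap after scaling for 3 of the 10 genes in DBTRG-05MG (TARBP2, AGO2 and DGCR8, all lower with WWOX), beside 19.7% of all genes. In T98G this held for 2 (PRKRA higher, AGO1 lower), beside 16.2%. It held for 1 in U87MG (PRKRA, higher), beside 17.5%, and for 1 in U251MG (ADARB1, lower), beside 10.4%. PRKRA was picked by the study on this contrast, so its part in these counts is a description without a test. By direction, all genes without overlap were split into 9.46% higher and 10.3% lower with WWOX in DBTRG-05MG, 7.74% and 9.73% in U87MG, 5.43% and 5.01% in U251MG, and 7% and 9.21% in T98G. Within a line the exact permutation of 3 against 3 libraries cannot give a p below 0.1, and over the 4 lines 160000 arrangements were enumerated.

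**Figure D3:**
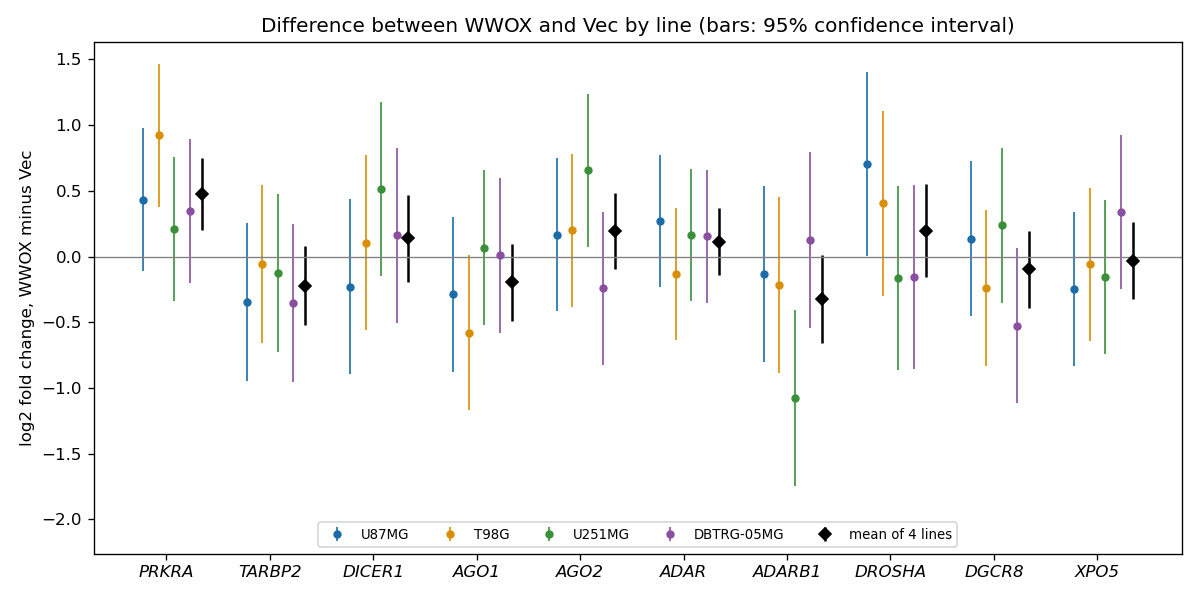
Difference between WWOX and Vec on the log2 scale (y axis) for each gene (x axis), with coloured points for the 4 lines, black diamonds for their mean and bars for the 95% confidence interval of the limma fit. PRKRA has its largest value in T98G, at 0.92, and ADARB1 its lowest in U251MG, at -1.08.

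TARBP2 lay lower in WWOX than in Vec in each of the 4 lines without passing the test, and in T98G and U251MG the sign depended on the processing or on 1 library. In T98G the log2 difference was -0.06, 0.15 with the GC and length correction and 0.23 without Vec replicate 3. In U251MG it was -0.12, and 0.18 without WWOX replicate 1. In DBTRG-05MG it was at 45.1, 44.5 and 45.1 CPM in Vec and 32.9, 40.0 and 37.5 in WWOX, groups that did not overlap, and the log2 difference was -0.35 (SE 0.29, adjusted p = 0.915 by limma), or -0.21 with the GC and length correction. In U87MG it was at 90.4, 75.9 and 95.8 in Vec and 56.9, 73.1 and 86.6 in WWOX, with a log2 difference of -0.35 as well, and of -0.16 without WWOX replicate 1. The mean over the lines was -0.22 (SE 0.14, 95% interval -0.52 to 0.08, exact permutation p = 0.126). It was -0.11 with the GC and length correction and -0.14 without U251MG WWOX replicate 1, and 10.4% of all genes were below 0 in all 4 lines. DICER1 was read at only 3.35 to 15.5 CPM, from 43 to 226 tags, and its mean difference over the lines was 0.14 (SE 0.16, 95% interval -0.19 to 0.47, exact permutation p = 0.408), or 0.05 with the GC and length correction and 0.04 without U251MG WWOX replicate 1. In U251MG DICER1 was at 15.5, 3.36 and 8.66 in WWOX, and the difference of 0.51 was 0.12 without WWOX replicate 1 and 0.85 without the library labelled WWOX replicate 2. Relative to all genes, the 14 tested neighbours of DICER1 within 1 Mb had a median of 0.60 in U251MG.

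The microprocessor genes DROSHA and DGCR8 gave no call either. DROSHA was at 19.3, 31.1 and 33.7 CPM in U87MG Vec and at 58.3, 58.1 and 29.98 in U87MG WWOX, so that 2 WWOX libraries were high and the third fell among the Vec libraries. The log2 difference there was 0.71 (SE 0.34, adjusted p = 0.431 by limma), and in T98G it was 0.40. Leaving out 1 library moved these values to between 0.47 (without U87MG Vec replicate 1) and 0.9997 in U87MG and between 0.24 (without WWOX replicate 3) and 0.63 (without Vec replicate 2 or WWOX replicate 1) in T98G. Relative to all genes, the 8 tested neighbours of DROSHA within 1 Mb had a median of 0.74 in U87MG and -0.02 in T98G. Over the lines DROSHA differed by 0.20 (exact permutation p = 0.296), or by 0.10 without U251MG WWOX replicate 1. DGCR8 in DBTRG-05MG was at 16.1, 11.8 and 16.9 in Vec and 10.7, 12.1 and 9.12 in WWOX, which overlapped as CPM but not after scaling, with a log2 difference of -0.53 (SE 0.28, adjusted p = 0.735 by limma). Over the lines it differed by -0.10 (exact permutation p = 0.503), by -0.05 with the GC and length correction, and by -0.20 to -0.03 when 1 library was left out (U87MG Vec replicate 2 and U251MG WWOX replicate 3 at the ends). The export factor XPO5 differed by -0.03 over the lines (SE 0.14, 95% interval -0.32 to 0.26) and by 0.34 in DBTRG-05MG, where it was at 27.1, 38.8 and 35.2 in Vec and 51.2, 45.2 and 37.3 in WWOX. Without DBTRG-05MG Vec replicate 1 the latter was 0.21.

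Neither Argonaute gene was called, and the largest differences with WWOX were upward for AGO2 and downward for AGO1. In DBTRG-05MG AGO2 was lower with WWOX, in groups that overlapped as CPM but not after scaling. AGO2 in U251MG was at 33.3, 25.2 and 23.4 CPM in Vec and 66.7, 26.2 and 45.9 in WWOX, overlapping groups with a log2 difference of 0.65 (SE 0.28, adjusted p = 0.367 by limma), or 0.43 without WWOX replicate 1. AGO1 in T98G was at 12.4, 13.3 and 10.5 in Vec and 11.1, 5.12 and 8.65 in WWOX, with a log2 difference of -0.58 (SE 0.28, adjusted p = 0.441 by limma) and of -0.29 in U87MG. These fell in size to -0.29 without T98G WWOX replicate 2 and to -0.16 without U87MG WWOX replicate 3. Over the lines AGO2 differed by 0.20 and AGO1 by -0.20, with exact permutation p values of 0.195 and 0.167, and AGO1 was at -0.13 without T98G WWOX replicate 2 or U251MG Vec replicate 2.

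ADARB1 gave the largest difference among the 9 tested genes, in U251MG, where the Vec libraries held 25.4, 36.3 and 34.02 CPM and the WWOX libraries 10.8, 14.9 and 20.1. The groups did not overlap, and the log2 difference was -1.08 (SE 0.32, unadjusted p = 0.00315, adjusted p = 0.171 by limma). Leaving out the library labelled U251MG WWOX replicate 2 gave -1.31 with an adjusted p of 0.0383 by limma, and without WWOX replicate 1 it was -0.78. In the former fit RAN, ILF2 and MAVS, genes of the lists read below, were also called in U251MG. The count of calls over all genes in U251MG was 39 in the main fit and went from 4 to 557 over the alternatives. In U251MG 10.4% of all genes had groups that did not overlap. The difference between U251MG and the average of the remaining lines did not pass the test (adjusted p = 0.265 by limma). Over all 36 such differences of the 9 genes, 0 were called and 1 had an unadjusted p under 0.05. Of all genes, 0.422% were called for U251MG, 0.982% for DBTRG-05MG, 1.54% for T98G and 2.39% for U87MG in this test, and 11.4%, 7.1%, 12.8% and 9.92% had an unadjusted p under 0.05. ADARB1 in the other lines was at 3.23 to 5.10 CPM in U87MG Vec and 2.29 to 5.69 in U87MG WWOX, and at 22.5 to 24.2 in DBTRG-05MG Vec and 22.0 to 35.6 in WWOX. Over the lines it differed by -0.33 (SE 0.16, exact permutation p = 0.0873). ADAR differed by 0.27 in U87MG, where it was at 31.2, 23.0 and 35.1 in Vec and 47.3, 36.4 and 29.5 in WWOX, and by 0.11 over the lines (SE 0.12, exact permutation p = 0.315). The U87MG value ran from 0.12 (without Vec replicate 2, or WWOX replicate 1) to 0.41 (without WWOX replicate 3), and the mean fell to 0.05 without T98G Vec replicate 3 and to 0.07 without U87MG Vec replicate 2, U87MG WWOX replicate 1 or U251MG Vec replicate 3.

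Interferon-stimulated genes were read beside ADAR because ADAR and EIF2AK2 respond to interferon. The sum of 8 of them ran from 305 to 12819 CPM among the U251MG WWOX libraries and from 447 to 2677 among the U251MG Vec libraries, and from 206 to 1531 in DBTRG-05MG Vec and 227 to 270 in U87MG Vec. In T98G, where PRKRA differed most, the sums were at 477 to 1228 in Vec and 350 to 453 in WWOX. They did not overlap as CPM but did after scaling between libraries. IFI6 in T98G was at 118 to 550 CPM in Vec and 67.1 to 101 in WWOX. ISG15 overlapped there, at 417, 192 and 605 CPM in Vec and 300, 263 and 195 in WWOX. All 8 genes were below 0 in T98G, and 0 had an unadjusted p under 0.05 by limma. The part of these genes in the results was not tested. In the library labelled U251MG WWOX replicate 2 ISG15 was at 5408 and IFI6 at 6956 CPM, whereas ADAR at 54.4 and EIF2AK2 at 4.72 CPM were the lowest of that group. The list had 0 of 8 genes called in any line or in the mean, with a median over the lines of 0.10 beside -0.01 for all genes tested.

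The other genes of both pathways also gave 0 calls. Of 23 further microRNA pathway genes, 20 were tested and their median difference over the lines was -0.004 beside -0.01 for all genes, with 1 unadjusted p under 0.05. The highest were TNRC6A, a partner of Argonaute in silencing, at 0.33 (SE 0.18), and TUT4, which adds uridines to pre-microRNAs, at 0.26 (SE 0.22). The lowest were RAN, the GTPase that works with XPO5, at -0.28 (SE 0.13, adjusted p = 0.317 by limma), and HNRNPA2B1 at -0.27 (SE 0.15). RAN was at 547 to 567 CPM in U251MG Vec and at 254 to 433 in U251MG WWOX. Of 19 genes that sense or bind double-stranded RNA, 17 were tested, with a median of -0.03 and 1 unadjusted p under 0.05. The highest were TLR3, the endosomal sensor, at 0.45 (SE 0.20, adjusted p = 0.296 by limma) but only 0.0715 to 7.02 CPM, and STRBP at 0.23 (SE 0.22), and the lowest were OAS3 at -0.41 (SE 0.39) and ILF2 at -0.22 (SE 0.13).

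Levels were also compared between lines. In Vec libraries 21 of 60 tests, 10 genes in 6 pairs of lines, passed an adjusted p of 0.05, or 35%, beside 39.8% of all genes for U87MG against T98G, 38.6% for U87MG against U251MG, 44.1% for U87MG against DBTRG-05MG, 32.3% for T98G against U251MG, 41.2% for T98G against DBTRG-05MG and 31.6% for U251MG against DBTRG-05MG. The share is close to that background, so what follows describes which genes differed and in which direction. DICER1 and DGCR8 were called in none of the 6 pairs. After scaling, the Vec libraries of U87MG lay above all other Vec libraries for TARBP2 and below them for AGO2 and ADAR, and those of U251MG lay above for ADARB1 and below for TARBP2, while no member stood apart in this way in T98G or DBTRG-05MG. Of all genes, 9.39% lay above and 11.7% below in U87MG, 5.93% and 5.55% in U251MG, 7.5% and 6.42% in T98G, and 10.6% and 7.42% in DBTRG-05MG.

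**Figure D4:**
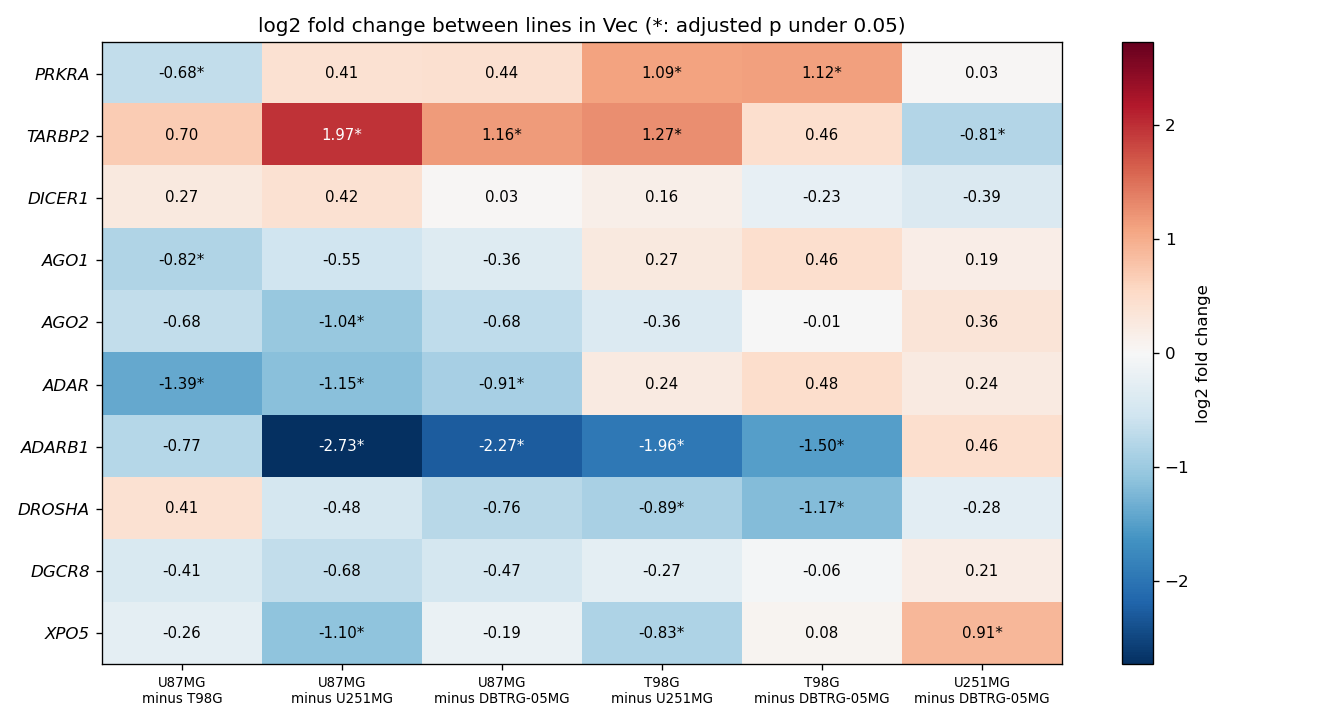
Difference on the log2 scale between the Vec libraries of 2 lines (columns) for each gene (rows), with red for higher and blue for lower in the first line, where an asterisk marks an adjusted p under 0.05 in limma. The strongest cells are ADARB1 in U87MG against U251MG, at -2.73, and TARBP2 in the same pair, at 1.97.

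ADARB1 spanned the widest range. Its Vec libraries held 3.41, 5.10 and 3.23 CPM in U87MG, 5.55, 12.1 and 4.83 in T98G, 22.5, 24.0 and 24.2 in DBTRG-05MG and 25.4, 36.3 and 34.02 in U251MG. U251MG exceeded U87MG 6.63-fold (log2 difference of U87MG minus U251MG -2.73, SE 0.32, adjusted p = 3.38e-07 by limma) and T98G 3.89-fold. DBTRG-05MG exceeded U87MG 4.81-fold and T98G 2.83-fold, while U251MG and DBTRG-05MG (0.46) and U87MG and T98G (-0.77, adjusted p = 0.0637 by limma) did not pass the test.

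TARBP2 ran the other way. Its Vec libraries held 90.4, 75.9 and 95.8 CPM in U87MG, 56.2, 38.8 and 70.3 in T98G, 45.1, 44.5 and 45.1 in DBTRG-05MG and 22.1, 23.4 and 28.8 in U251MG. Each U87MG library lay above all other Vec libraries and each U251MG library below them. U87MG exceeded U251MG 3.92-fold (adjusted p = 8.03e-06 by limma) and DBTRG-05MG 2.24-fold, T98G exceeded U251MG 2.41-fold, and U251MG was below DBTRG-05MG 1.75-fold (adjusted p = 0.0373, lost with no filter on low values and in 5 of the 24 fits without 1 library). The genes around TARBP2 moved with it in part: relative to all genes, the median of its 37 tested neighbours within 1 Mb was -0.75 for U251MG against DBTRG-05MG and 0.88 for T98G against U251MG, beside -0.81 and 1.27 for TARBP2. For U87MG against DBTRG-05MG the neighbours were at -0.19, beside 1.16 for TARBP2. For U87MG against U251MG they were at 0.48, beside 1.97. For U87MG against T98G they were at -0.39, beside 0.70, and for T98G against DBTRG-05MG at -0.06, beside 0.46.

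PRKRA was highest in T98G Vec. T98G exceeded DBTRG-05MG 2.17-fold (adjusted p = 0.00166 by limma) and U251MG 2.13-fold (adjusted p = 0.00265), and it exceeded U87MG 1.60-fold at an adjusted p of 0.0458 that 4 of the 8 alternative analyses and 17 of the 24 fits without 1 library did not hold. U87MG, U251MG and DBTRG-05MG did not differ from each other by the test, with differences of 0.03 to 0.44 on the log2 scale. The T98G Vec libraries, at 32.0 to 78.2 CPM, were also the most spread, and the lowest lay within the range of U87MG. Relative to all genes, the 9 tested neighbours of PRKRA within 1 Mb had a median of 0.51 for T98G against U251MG, beside 1.09 for PRKRA, and of 0.15 for T98G against DBTRG-05MG, beside 1.12.

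ADAR was lowest in U87MG Vec, at 31.2, 23.0 and 35.1 CPM, beside 77.8, 116 and 52.7 in T98G, 89.5, 79.8 and 56.2 in U251MG and 65.4, 50.03 and 82.4 in DBTRG-05MG. It was 2.62-fold lower than in T98G (adjusted p = 7.24e-05 by limma), 2.22-fold lower than in U251MG and 1.88-fold lower than in DBTRG-05MG, and relative to all genes its 46 tested neighbours within 1 Mb had medians of -0.32, 0.15 and 0.23 in the same 3 pairs, beside -1.39, -1.15 and -0.91 for ADAR.

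DROSHA had its lowest mean in T98G Vec, at 18.8, 31.5 and 14.6 CPM. It overlapped U87MG Vec, at 19.3, 31.1 and 33.7 (log2 difference of U87MG minus T98G 0.41, not called). T98G was 2.25-fold below DBTRG-05MG with 44.2, 56.3 and 64.2 (adjusted p = 0.0079 by limma). It was 1.86-fold below U251MG with 40.3, 45.0 and 44.1 (adjusted p = 0.0475 by limma, lost in 4 of the 8 alternative analyses and in 18 of the 24 fits without 1 library). Relative to all genes, the 8 tested neighbours of DROSHA within 1 Mb were at -0.09 and -0.20 in these called pairs, beside -1.17 and -0.89. XPO5 was highest in U251MG Vec, at 76.1, 40.5 and 72.8 CPM, 2.14-fold above U87MG, 1.87-fold above DBTRG-05MG and 1.78-fold above T98G, and the last 2 calls were lost in 3 and 4 of the 24 fits without 1 library. Relative to all genes, the 38 tested neighbours of XPO5 had a median of -0.66 for U87MG against U251MG, beside -1.10 for XPO5, 0.47 for U251MG against DBTRG-05MG, beside 0.91, and 0.005 for T98G against U251MG, beside -0.83. AGO2 was lowest in U87MG Vec, at 12.3, 9.43 and 12.9 CPM, and 2.06-fold below U251MG (adjusted p = 0.00499 by limma). Relative to all genes, its 7 tested neighbours within 1 Mb had a median of -0.75 in that pair, beside -1.04 for AGO2. For U87MG against T98G and DBTRG-05MG they were at -1.27 and -0.86, beside -0.68 and -0.68 for AGO2. AGO1 was 1.76-fold lower in U87MG than in T98G (adjusted p = 0.0256 by limma), a call lost with CPM as deposited and in 5 of the 24 fits without 1 library (adjusted p up to 0.0701). Its 20 tested neighbours were at 0.42 there, beside -0.82 for AGO1. DICER1 stayed between 3.35 and 8.63 CPM and DGCR8 between 5.10 and 19.7 CPM over the 12 Vec libraries.

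Across the 24 libraries, after the mean of each line was subtracted, the genes most like PRKRA were MAP2 (r = 0.88), DCUN1D4 (0.87), NAMPT (0.86), SMIM14 (0.86) and VPS26A (0.86), of 12326 genes compared. All 5 have transcripts below the median GC content, at 34.3% to 42.5%, and 14.4% of all genes had an r over 0.5. WWOX ranked 49 with r = 0.80 and DROSHA 444 with 0.68, whereas TARBP2 had r = -0.71. These values are a description, because the libraries share the GC dependence given above and WWOX status.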

How the data were processed

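CAGE-Seq libraries (cap-trapped, random-primed cDNA) of 4 glioblastoma lines were analysed as Vec and WWOX, grouped by the labels. Per the labels, the authors mapped reads with STAR and SAMtools to hg38, counted tags per gene and deposited CPM values, for which limma 3.42 is also named. The gene annotation and the strand setting of the counting are not given in the sources used here. The 24 single-library tables were identical to the series table, 0 columns were left unused, and 4 of 43037 genes had no symbol.

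Whole tags were recovered from the deposited CPM for 100% of values (relative tolerance 1e-04). For testing, CPM were scaled by TMM and taken as log2(CPM + 0.5), so that fold changes of low genes are understated. The 12327 genes that reached 5 CPM in any library were fitted with limma 3.58.1 (trend, 8 groups, 16 residual degrees of freedom), with Benjamini-Hochberg adjustment over all genes, and confidence intervals of 95%. The comparisons were WWOX minus Vec in each line, their mean, each line against the mean of the others, and Vec between lines. Exact two-sided permutation of labels within lines was used for the mean of 9 members and CHROMR (10 tests, p not adjusted). Intervals and the floor of 3 tags cover counting error or the fit only, and p-values measure the spread among these biological replicates. The code was tested on simulated data. R 4.3.3, edgeR 4.0.16 and Python 3.11.15 were used, and the recovered tags went to edgeR's quasi-likelihood test and limma-voom as alternatives.

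Named genes were the 10 members, WWOX, CHROMR, DICER1-AS1, genes of both pathway lists past the threshold with WWOX, the 2 highest and 2 lowest of each list by mean difference, and the 5 genes most like PRKRA. Some results for single genes are not reported here. Line values of the 9 tested members are printed where they exceed their SE, and for TARBP2 in all lines. The members and lists were chosen with earlier results of these data known. Neighbours within 1 Mb and the GC correction (splines with 5 degrees of freedom) were chosen after seeing the data.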

Additional observations from a re-analysis of the deposited data

How the results depend on the processing

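Of 60 single differences (all of PRKRA with WWOX, means over lines, other line values beyond their SE and Vec calls), 58 kept their sign under all 35 alternatives, where these apply, and TARBP2 in T98G and U251MG, within its SE, changed sign as given above. PRKRA in U251MG turned from 0.21 to -0.07 without U251MG WWOX replicate 1. XPO5 in the mean of the lines turned from -0.03 to 0.0032 with CPM as deposited and ranged from -0.11 to 0.025 when 1 library was left out. The number of WWOX calls among the 9 members in 4 lines was 0 to 1 when 1 library was left out, the 1 being ADARB1 in U251MG when the library labelled U251MG WWOX replicate 2 was absent. In no other alternative was a member called with WWOX. For Vec between lines the 21 calls became 33 with the GC and length correction, chosen after seeing the data, 18 to 22 under the other alternatives, and 16 to 26 when 1 library was left out. Calls near the threshold were lost most often, as for PRKRA in U87MG against T98G and DROSHA in T98G against U251MG (adjusted p up to 0.195 and 0.178), and the cause was not tested.

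Among the lists, calls of microRNA pathway genes ranged from 0 to 2 when 1 library was left out, both of them RAN without the library labelled U251MG WWOX replicate 2. Calls of genes that sense or bind double-stranded RNA ranged from 0 to 3. With no filter on low values it was 1 (ADARB2 in DBTRG-05MG), and with a separate model per line or the GC and length correction it was 1. The count over all genes in U251MG was 39 and went from 4 to 557 over the alternatives, and in T98G 140 went from 23 to 394, in DBTRG-05MG 126 from 49 to 395, in U87MG 395 from 253 to 618, and in the mean of the lines 220 from 101 to 850.

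Replicate numbers did not pair the samples: 4 of 12 same-numbered Vec and WWOX pairs had deviations correlated over 0.1, with a range of -0.55 to 0.51, and not every library correlated best with its own number. With the replicate as a block 0 members were called, with or without the GC and length correction, and the calls over all genes in the mean of the lines were 254 and 144. Depth limits DICER1 and ADARB1 most, where a library held as few as 43 and 27 tags.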

Other observations

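The genes next to PRKRA were also higher in WWOX than in Vec in T98G. All 9 tested genes within 1 Mb of it (AGPS, TTC30A, RBM45, OSBPL6, CHROMR, FKBP7, PLEKHA3, TTN-AS1 and SESTD1) were above 0 there, with a median log2 difference of 0.68 beside -0.04 for all genes and 0.92 for PRKRA. In U87MG 4 of the 9 were above 0 with a median of 0, beside 0.43 for PRKRA, in U251MG 5 with 0.09, and in DBTRG-05MG 8 with 0.23. Within 5 Mb 31 of 39 genes were above 0 in T98G with a median of 0.44, and within 10 Mb 49 of 72 with 0.21. In T98G OSBPL6, a lipid-binding protein gene, went from a mean of 4.38 to 9.95 CPM and RBM45, an RNA-binding protein gene, from 15.5 to 24.6, each with WWOX libraries wholly above Vec libraries, as 7% of all genes had in that direction. Of the 9, TTN-AS1 was called in T98G, at 0.14 CPM in Vec and 2.40 in WWOX. The window was chosen after the data were seen, CHROMR overlaps PRKRA, and copy number was not measured.

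Among genes not fixed as members, MAVS, the adaptor of the cytosolic RNA sensors, was lower in U87MG Vec than in the other lines, by -1.32 against DBTRG-05MG, -1.70 against T98G and -1.27 against U251MG on the log2 scale, and RAN was higher there by 0.91, 0.95 and 1.05. Both were chosen after their values were seen, and both passed an adjusted p of 0.05 by limma in all 3 pairs. In the same order 44.1%, 39.8% and 38.6% of all genes passed. Of the 17 tested genes in the list of MAVS, 16, 13 and 15 were below 0, with medians of -0.95, -0.33 and -0.70. Of the 20 in the list of RAN, 11, 13 and 11 were above 0.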
